A study of Mus musculus with 6 samples.

Results

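The genes described here are 10 negative regulators of mitogen-activated protein kinase (MAPK) signalling in RAW264.7 cells: the dual specificity phosphatase genes Dusp1, Dusp2, Dusp4, Dusp5, Dusp6 and Dusp16, the Sprouty genes Spry1 and Spry2, and the Sprouty-related genes Spred1 and Spred2. They were chosen by symbol, with earlier results of these data known, and all 10 were found among the 55401 genes of the count tables. RAW264.7 is a mouse macrophage line that came from a tumour caused by Abelson leukaemia virus. Poly(A)-selected RNA was sequenced in 6 libraries, 3 from the control siRNA group (titles siCont, genotype WT) and 3 from the Nop16 siRNA group (titles siN16, genotype Nop16 KD). The treatment text shared by all samples names Nop16 siRNA at 20 nM, given by lipid transfection for 3 days, and the treatment tag is "no" throughout. It does not say what the control cells received, so effects of transfection and of Nop16 loss cannot be told apart. Separate cultures are not stated either, so p-values measure the spread between these libraries, which may be technical. NOP16 works in the nucleolus, where it helps to build the large subunit of ribosomes. Values listed for 3 libraries are in the order of replicates 1, 2 and 3.

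MAPK cascades pass signals from receptors such as the CSF1 receptor and the Toll-like receptors to the kinases ERK, p38 and JNK. Dual specificity phosphatases switch these kinases off by removing phosphate from both the threonine and the tyrosine of the activation loop. Sprouty and SPRED proteins act further upstream and dampen the Ras to Raf to ERK step. Many of these genes are themselves induced by MAPK activity, which makes them feedback inhibitors. In macrophages Dusp1 is known for limiting p38 and JNK signalling and cytokine output after Toll-like receptor stimulation. Only RNA was measured here, so kinase activity was not analysed.

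Nop16 itself had 388, 437 and 402 counts in the control libraries and 61, 72 and 84 after knockdown. This placed it at 22.4% of control (log2 fold change -2.16, SE 0.12, edgeR adjusted p = 2.94e-23). Library totals ran from 19778237 to 23061922 counts in the control group and from 15601477 to 18635089 in the Nop16 siRNA group, so every control library was the deeper. A gene with 3 counts, taken as the floor for counting error, stands at 0.13 to 0.192 CPM (counts scaled to the library total, in the usual per-million unit). All 9 macrophage markers examined were detected, and their summed level was 5102 to 5374 CPM in control and 8037 to 8411 CPM after Nop16 siRNA. A large part of that difference came from Lyz2 alone, whose mean went from 1151 to 2908 CPM. Of the 9 markers Lyz2, Mertk, Cd14, Itgam, Csf1r and Cd68 rose, Fcgr1 fell and the other 2 did not pass. Whether that shift has a part in the changes below was not tested. In bulk RNA, fewer cells expressing a gene and less of its RNA per cell cannot be told apart. Among markers of other cells, Cd3e, Cd8a, Ncr1, Pax5, S100a9, Krt8, Krt18, Col1a2, Dcn and Lum had 0 counts in all 6 libraries. The summed level was at most 0.376 CPM for 6 T and NK markers, 0.0537 CPM for 4 epithelial markers and 1.65 CPM for 5 fibroblast markers. The 6 neutrophil markers summed to 11.8 to 16.4 CPM in control and 14.4 to 16.6 CPM after Nop16 siRNA, and none passed. The 5 B lymphoid markers summed to 13.5 to 14.5 CPM against 6.75 to 8.21 CPM, and among them Ighm fell by 0.89 on the log2 scale.

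After Nop16 siRNA, 6 of the 10 feedback genes rose, 1 fell and 3 did not pass the test (edgeR quasi-likelihood test, adjusted p below 0.05 over 14269 genes). The rises were modest: 1.40-fold for Dusp5, 1.35-fold for Dusp1, 1.26-fold for Dusp4, 1.24-fold for Spry2, 1.14-fold for Dusp6 and 1.13-fold for Dusp16. Spred2 fell to 76.0% of control, Spred1 differed by 4.92% and did not pass, and Dusp2 and Spry1 were near the limit of detection. Many genes changed in this comparison, and 45.4% of all genes tested passed, 23% higher and 22.4% lower. The median log2 fold change was 0.25 over the 10 genes and -0.000196 over all genes tested. For 8 of the 10 the 3 libraries of a group lay wholly above or below the other group, which was so for 52.6% of all genes. Among the 10855 genes with at least 5 CPM in 3 libraries, 55.2% passed when fitted alone, as did 7 of the 8 feedback genes at that level. The plot of CPM by library shows the separation gene by gene.

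**Figure D1:**
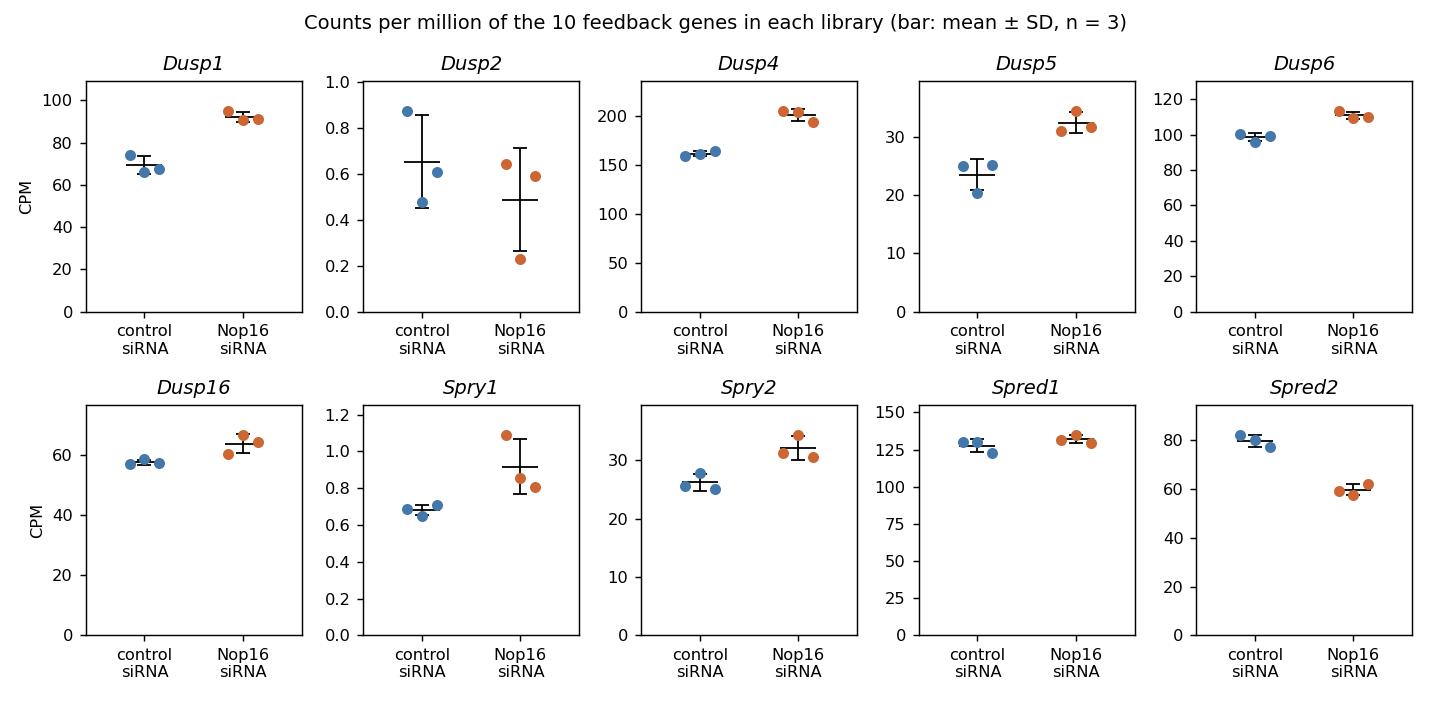
Level in CPM (vertical axis, from 0) of each of the 10 feedback genes in the 3 control siRNA (blue) and 3 Nop16 siRNA (orange) libraries, 1 point per library, with bars for mean ± SD (n = 3). The groups separate for every gene except Dusp2 and Spred1, and Spred2 is the gene whose Nop16 siRNA libraries lie below the control libraries.

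Dusp5, a nuclear phosphatase selective for ERK, had the largest change among the feedback genes that passed. It stood at 25.0, 20.4 and 25.1 CPM in the control libraries. After Nop16 siRNA it stood at 31.0, 34.4 and 31.7 CPM. Control replicate 2 was the lowest of the 6 and the groups did not overlap. The mean rose from 23.5 ± 2.71 to 32.4 ± 1.77 CPM (SD, n = 3 each), a log2 fold change of 0.49 (95% interval 0.33 to 0.64, SE 0.079, edgeR adjusted p = 4.68e-07). Without control replicate 2 the log2 fold change was 0.39 (edgeR adjusted p = 9.6e-05). The gene (ENSMUSG00000034765) lies on chromosome 19 from 53529109 to 53542431, plus strand, GRCm38.

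The promoters of the feedback genes are shown for the 3 with the largest changes past the threshold that had an entry in the RefSeq promoter table (GRCm38.p6), because each carries a letter match to a signal-responsive motif. Each run covers the 250 bases before the annotated start, 5′ to 3′ on the strand of the gene. Capitals mark matches on either strand to TGACG, the core of the cAMP response element (CRE), (read as CGTCA where it lies on the other strand) and to the CArG box, the serum response element core bound by SRF. The full CRE is TGACGTCA and contains that core.
Dusp5 promoter, chr19:53528895-53529144, plus strand: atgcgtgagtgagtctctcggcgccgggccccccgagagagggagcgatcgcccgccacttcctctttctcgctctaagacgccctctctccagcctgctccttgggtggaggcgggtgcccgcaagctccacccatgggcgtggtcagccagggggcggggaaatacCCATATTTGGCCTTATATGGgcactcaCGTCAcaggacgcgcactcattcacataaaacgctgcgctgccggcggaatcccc
Dusp1 promoter, chr17:26508473-26508722, minus strand: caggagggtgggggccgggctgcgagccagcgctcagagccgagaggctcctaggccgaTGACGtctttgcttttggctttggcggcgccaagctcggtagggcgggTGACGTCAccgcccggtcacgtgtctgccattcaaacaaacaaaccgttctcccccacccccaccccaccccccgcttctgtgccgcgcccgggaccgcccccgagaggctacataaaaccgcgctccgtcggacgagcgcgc
Spred2 promoter, chr11:19924192-19924441, plus strand: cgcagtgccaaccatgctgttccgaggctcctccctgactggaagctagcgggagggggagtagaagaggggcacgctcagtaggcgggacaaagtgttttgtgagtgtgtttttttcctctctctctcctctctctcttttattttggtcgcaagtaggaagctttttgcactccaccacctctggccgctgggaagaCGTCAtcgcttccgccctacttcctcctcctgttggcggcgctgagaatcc
The Dusp5 run holds a pair of adjacent CArG boxes, ending 73 and 63 bases before the start, and a TGACG core 51 to 55 bases before it. CArG boxes occur in 1.47% of the 32851 promoters searched over the same length and in 1.05% of those of tested genes, and none of the other 8 feedback genes with an entry had one. The Dusp1 run holds a full CRE 136 to 143 bases before the start, a motif found in 1.55% of all promoters and 2.6% of those of tested genes, and a separate TGACG core 187 to 191 bases before it. The Spred2 run holds 1 TGACG core, 47 to 51 bases before the start. That start is 19924442 in RefSeq, whereas the counted Spred2 model begins at 19924375, so this core lies within the span of the counted model.

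Of the 9 feedback genes with a promoter entry (Dusp4 had none in the table), 4 held a TGACG core, against 17.8% of all promoters and 26.9% of those of tested genes. These were Dusp1, Dusp5 and Dusp16, which rose, and Spred2, which fell. No entry of the 9 matched the AP-1 site TGANTCA (6.75% of all promoters, 4.53% of those of tested genes), the ETS site CCGGAAG (6.91%, 14.2%), the NF-kB site (3.9%, 4.42%) or the TATA box letters TATAAA (12.4%, 6.33%). The GC box GGGCGG was found in 7 of the 9, in 32.7% of all promoters and in 57% of those of tested genes. The E-box CACGTG was found in Dusp1 and Dusp2, in 6.02% of all promoters and in 8.34% of those of tested genes. Both strands were searched, and these are matches of letters, not measured binding.

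Dusp1 encodes a nuclear phosphatase that acts on p38, JNK and ERK. Its level was 74.4, 66.2 and 67.7 CPM in control and 94.9, 90.9 and 91.0 CPM after Nop16 siRNA. The lowest Nop16 siRNA library was thus well above the highest control library. The mean rose from 69.4 ± 4.35 to 92.3 ± 2.28 CPM (log2 fold change 0.43, 95% interval 0.34 to 0.53, SE 0.047, edgeR adjusted p = 1.29e-11). The counted gene model (ENSMUSG00000024190) runs on the minus strand of chromosome 17 from 26505590 to 26562128. RefSeq places the start at 26508472, so the model also reaches far upstream of the usual first exon. Any fragment from exons there would be counted for Dusp1, and counts per exon were not available.

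Dusp4 encodes another inducible nuclear phosphatase, acting on ERK, JNK and p38, and was the most abundant feedback gene. Its level was 159.5, 161 and 164.2 CPM in control and 204.9, 204.1 and 194.2 CPM after Nop16 siRNA. Each Nop16 siRNA library was above each control library. The control libraries differed by less than their counting error would give, with a coefficient of variation of 1.48% against 1.70% from counting alone. The log2 fold change was 0.34 (95% interval 0.27 to 0.41, SE 0.035, edgeR adjusted p = 1.29e-12). Dusp4 (ENSMUSG00000031530) lies on chromosome 8 from 34807297 to 34819894, plus strand.

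Dusp2, a nuclear phosphatase of activated leukocytes, was barely expressed. It had 19, 11 and 12 counts in the control libraries and 10, 4 and 11 in the Nop16 siRNA libraries, close to the floor of 3. The groups overlapped, and the log2 fold change of -0.40 had an interval from -1.33 to 0.53 (edgeR adjusted p = 0.517). The value moved to -0.058 without Nop16 siRNA replicate 2, to -0.13 without control replicate 1 and to -0.62 without Nop16 siRNA replicate 1, so at this depth its size was not resolved.

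Dusp6 encodes the cytoplasmic phosphatase selective for ERK and is a widely used readout of ERK activity. Its level was 100.5, 96.1 and 99.0 CPM in control and 113.3, 109.2 and 110.2 CPM after Nop16 siRNA. The groups did not overlap, although the rise was small at 14.3% (log2 fold change 0.19, 95% interval 0.11 to 0.28, SE 0.041, edgeR adjusted p = 7.3e-05). Of all genes tested, 47.4% had a smaller absolute log2 fold change. The gene (ENSMUSG00000019960) lies on chromosome 10 from 99263231 to 99267489, plus strand.

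Dusp16, which acts on JNK and p38, was the least changed of the phosphatase genes that passed. It stood at 57.0, 58.6 and 57.2 CPM in control and at 60.3, 66.8 and 64.4 CPM after Nop16 siRNA. The gap between the groups was narrow, between control replicate 2 and Nop16 siRNA replicate 1. The log2 fold change was 0.17 (95% interval 0.07 to 0.27, SE 0.052, edgeR adjusted p = 0.00481), and over the alternatives the adjusted p ran from 0.00125 to 0.0438. Dusp16 (ENSMUSG00000030203) spans chromosome 6 from 134715468 to 134792625, minus strand.

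Summed over the 6 phosphatase genes, the level was 402.8 to 417.2 CPM in the control libraries and 492.1 to 505.7 CPM in the Nop16 siRNA libraries. These ranges did not overlap, which follows from the single genes, since all but the barely expressed Dusp2 rose with separate groups. Dusp4 made up the largest part of each sum. The sum over Spry1, Spry2, Spred1 and Spred2 was 226.1 to 238.6 CPM in control and 222.8 to 227.7 CPM after Nop16 siRNA, and these ranges overlapped.

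Spry2, which restrains Ras and Raf downstream of receptor tyrosine kinases, rose. It stood at 25.6, 27.8 and 25.1 CPM in control and at 31.2, 34.3 and 30.5 CPM after Nop16 siRNA. All 3 Nop16 siRNA libraries exceeded the highest control library, replicate 2. The log2 fold change was 0.31 (95% interval 0.16 to 0.46, SE 0.074, edgeR adjusted p = 0.000383). Spry2 (ENSMUSG00000022114) lies on chromosome 14 from 105891947 to 105896819, minus strand.

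Its paralog Spry1 (ENSMUSG00000037211, chromosome 3, 37639947 to 37644598, plus strand) was close to the floor. It had 15, 15 and 14 counts in the control libraries and 17, 15 and 15 in the Nop16 siRNA libraries. In CPM the groups just separated, at 0.65 to 0.708 against 0.805 to 1.09, since the Nop16 siRNA libraries were shallower. The log2 fold change of 0.44 did not pass, with an interval from -0.34 to 1.22 (edgeR adjusted p = 0.38). In both groups Spry2 was far above Spry1.

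Spred1 and Spred2, which bring neurofibromin to the membrane and so limit active Ras, differed in that Spred2 fell and Spred1 did not pass the test. Spred1 (ENSMUSG00000027351, chromosome 2, 117121374 to 117182279, plus strand) stood at 130, 130.2 and 122.9 CPM in control and at 131.7, 134.9 and 129.3 CPM after Nop16 siRNA. These values overlapped, and the log2 fold change of 0.07 did not pass (95% interval -0.007 to 0.15, edgeR adjusted p = 0.136). That interval allows a rise of at most 1.11-fold.

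Spred2 (ENSMUSG00000045671, chromosome 11, 19924375 to 20024026, plus strand) stood at 82.2, 79.9 and 77.3 CPM in control and at 59.3, 57.6 and 62.1 CPM after Nop16 siRNA. The highest Nop16 siRNA library was well below the lowest control library. The mean fell from 79.8 ± 2.45 to 59.7 ± 2.30 CPM, a log2 fold change of -0.40 (95% interval -0.49 to -0.30, SE 0.049, edgeR adjusted p = 5.9e-10). It was the single feedback gene that fell.

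**Figure D2:**
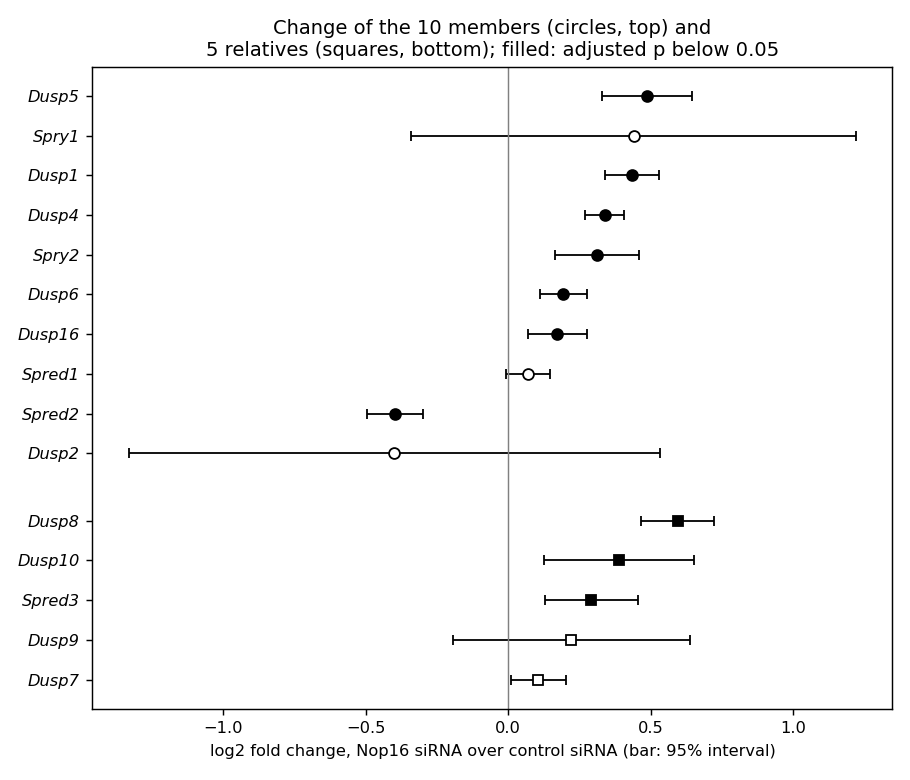
Log2 fold change (horizontal axis, Nop16 siRNA over control siRNA) with 95% interval for the 10 feedback genes (circles) and 5 relatives outside the set (squares), where filled symbols passed at an edgeR adjusted p below 0.05. Intervals of Dusp2 and Spry1 are wide because they rest on 4 to 19 counts per library, and Spred2 is the filled symbol left of 0.

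The ratio of 2 genes within a library is free of library scaling. Spred1 counts were 1.58, 1.63 and 1.59 times those of Spred2 in control and 2.22, 2.34 and 2.08 times after Nop16 siRNA. The balance between the paralogs thus moved towards Spred1 in every Nop16 siRNA library. Of the 2 genes only Spred2 passed on its own, so this ratio largely restates its fall. The ratio of Spry2 to Spred2 went from 0.328 ± 0.019 to 0.537 ± 0.054, and that of Dusp4 to Spred2 from 2.03 ± 0.093 to 3.38 ± 0.221 (SD, n = 3 each). Among the phosphatases the ratio of Dusp4 to Dusp6 went from 1.64 ± 0.046 to 1.81 ± 0.053. The ratio of Dusp5 to Dusp6 went from 0.238 ± 0.023 to 0.292 ± 0.021. None of these ratios overlapped between groups. For Spry2 and Dusp4 over Spred2 this follows from the single genes, which already separated in opposite directions. The ratios were set out after the fold changes were known and carry no test.

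**Figure D3:**
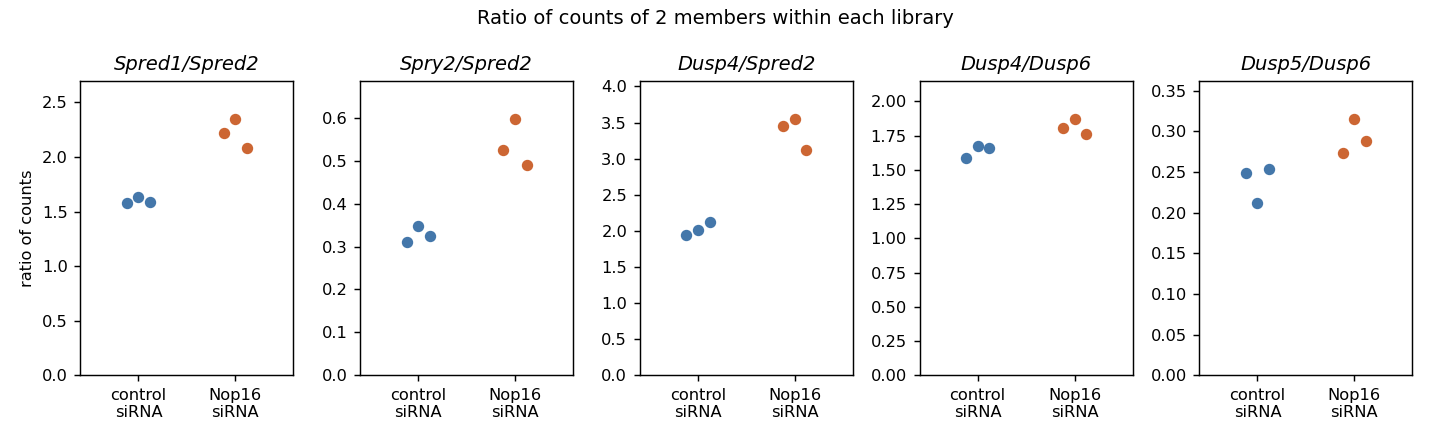
Ratio of the counts of 2 feedback genes within each library (vertical axes, from 0, no unit), 1 point per library, control siRNA in blue and Nop16 siRNA in orange. The 3 ratios over Spred2 move most, with Spred1/Spred2 between 1.58 and 1.63 in control and between 2.08 and 2.34 after Nop16 siRNA.

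Levels of different genes can be compared only per length, here as CPM per kilobase of all exons of the counted model. In the control group the order was Dusp4 (59.0 ± 0.87), Dusp6 (31.5 ± 0.703), Dusp1 (20.96 ± 1.31), Spred1 (18.8 ± 0.611), Spred2 (17.3 ± 0.53), Spry2 (12.5 ± 0.699), Dusp5 (9.50 ± 1.09) and Dusp16 (7.39 ± 0.114 CPM per kilobase, SD, n = 3). Dusp2 (0.325 ± 0.1) and Spry1 (0.235 ± 0.01) were far below and overlapped each other. No other neighbours in that order overlapped. After Nop16 siRNA, Spred2 (12.9 ± 0.497) dropped below Spry2 (15.3 ± 0.982) and lay in the range of Dusp5 (13.1 ± 0.716), while the top 4 kept their places. The order of Dusp1 and Dusp6, and that of Dusp5 and Dusp16, depended on the length used. Divided by the transcript with the longest coding sequence, 1990 bases for Dusp1 against 3311 for its whole model, Dusp1 (34.9) and Dusp6 (35.2) overlapped in control. On that scale Dusp1 stood above Dusp6 after Nop16 siRNA, at 46.4 against 39.7 CPM per kilobase. Dusp16, at 11.3 ± 0.174, lay above Dusp5, at 9.50 ± 1.09, in control, and their ranges overlapped after Nop16 siRNA.

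**Figure D4:**
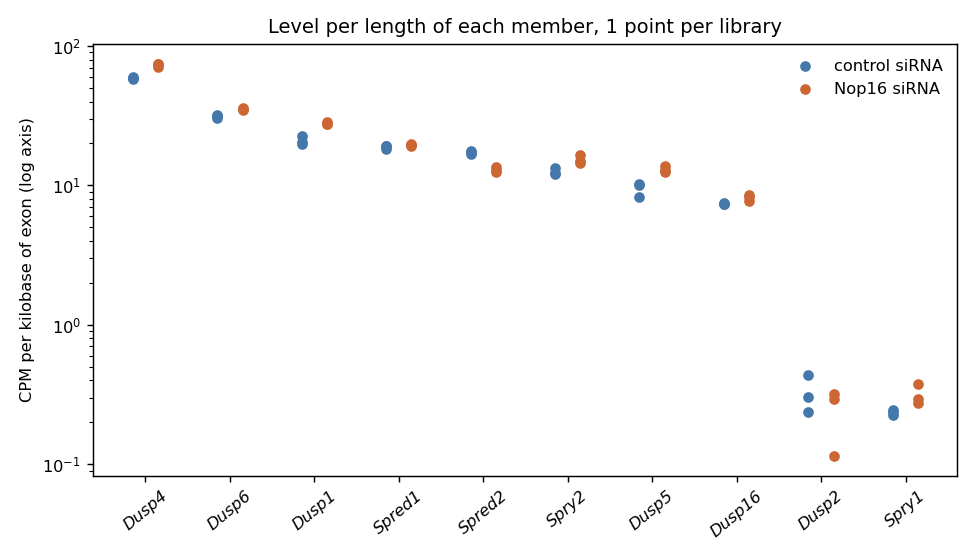
CPM per kilobase of exon (vertical log axis) of each feedback gene, ordered by its control level, 1 point per library, control siRNA in blue and Nop16 siRNA in orange. Dusp4 is highest in both groups, and Dusp2 and Spry1 lie below 1 CPM per kilobase, far under the next gene.

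The AU-rich element TATTTAT, a binding sequence of RNA decay proteins such as tristetraprolin, was searched on the sense strand of the annotated 3′ UTR of each gene. It was found in 6 of the 10 feedback genes and in 27.1% of the 11257 tested genes searched. Dusp1 had 3 copies in 690 bases, or 4.35 per kilobase, against 0.288 per kilobase over all genes searched. The copies are shown with 10 bases on either side (GRCm38, minus strand, read along the transcript), with the element in capitals.
Dusp1 site, chr17:26506160-26506186: agctggtcctTATTTATttaacacccc
Dusp1 site, chr17:26505871-26505897: tttttaccttTATTTATttttgtgtag
Dusp1 site, chr17:26505675-26505701: tatgtttgttTATTTATgatctgaagt
Spry1 and Spry2 had 2 copies each, and a copy of each gene is shown because the paralogs share 17 bases around it.
Spry1 site, chr3:37644410-37644436, plus strand: ttgtaaagaaTATTTATtatgcgaatc
Spry2 site, chr14:105892093-105892119, minus strand: gtgtaaagaaTATTTATttgaagtttt
Spred1 had 3 copies in 4330 bases (0.693 per kilobase), Spred2 had 1 in 2579 and Dusp2 had 1 in 581. The median UTR of the genes searched was 937 bases, and the share of genes with a copy was not adjusted for length. Dusp4, Dusp5, Dusp6 and Dusp16 had none, and all 4 of them rose. The element was present in genes that rose (Dusp1, Spry2), fell (Spred2) or did not pass (Dusp2, Spry1, Spred1). Whether it has a part in the changes was not tested.

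Relatives outside the 10 were taken from a list of 8 further MAPK phosphatase, Sprouty and SPRED genes, of which 7 were in the tables and 5 were tested. Of these 3 rose, none fell, and the median log2 fold change was 0.29. That was 60% called, beside 45.4% of all genes tested. Dusp8, a phosphatase of JNK and p38, rose from 30.3 ± 0.998 to 45.05 ± 1.28 CPM, or 1.51-fold (log2 fold change 0.59, SE 0.064, edgeR adjusted p = 8.26e-12). Spred3 rose 1.22-fold. Dusp10, also directed at JNK and p38, rose 1.31-fold (edgeR adjusted p = 0.0123) with overlapping groups. With control replicate 2 left out it did not pass (log2 fold change 0.34, edgeR adjusted p = 0.0608), nor with Nop16 siRNA replicate 2 left out (0.25 against 0.39 in full, adjusted p = 0.171). Dusp7 and Dusp9 did not pass. Spry4 had 0 counts in all 6 libraries.

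Among 12 tested atypical dual specificity phosphatases and slingshot phosphatases, 4 rose and 2 fell, with a median of 0.17. That was 50% called, beside 45.4% of all genes tested. Dusp3 rose 1.21-fold and Dusp11, an RNA phosphatase, fell by 0.19 on the log2 scale. Dusp28 had a log2 fold change of -0.36 (edgeR adjusted p = 0.0324), and DESeq2 gave the same size without a call (adjusted p = 0.089). The size itself moved to -0.24 when control replicate 1 was left out (edgeR adjusted p = 0.245) and to -0.20 when Nop16 siRNA replicate 2 was left out (0.281), and neither passed.

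The cascade that these genes restrain moved in a mixed way. Of 21 tested genes from the CSF1 receptor to ERK, 8 rose and 4 fell, with a median of 0.05. That was 57.1% called, beside 45.4% of all genes tested. Rasgrp3, which loads Ras with GTP, rose 1.42-fold and the adaptor gene Gab2 1.31-fold, while Braf fell by 0.47 on the log2 scale. Of 25 tested genes of the p38 and JNK modules, 7 rose and 10 fell (68% called), with a median of -0.001. Map2k4, which activates JNK, rose 1.57-fold, Mapkapk3 rose 1.41-fold, and Rps6ka5, a kinase below p38 and ERK, fell by 0.67 on the log2 scale. Some substrates of the phosphatases were looked up after these counts were seen. Mapk3 (ERK) fell by 0.11 and Mapk14 (p38) by 0.11 on the log2 scale (edgeR adjusted p = 0.00267 and 0.00611). Mapk8 (0.02) and Mapk9 (0.04), which encode JNK kinases, did not pass, with edgeR adjusted p of 0.928 and 0.512.

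ERK-responsive genes outside the phosphatase and Sprouty families rose more often than they fell. Of 24 tested, 14 rose and 4 fell, with a median of 0.25, beside 23% and 22.4% of all genes. Mcl1, a survival factor, rose 1.62-fold from 394.0 ± 2.74 to 627.7 ± 18.8 CPM, Klf2 rose 1.45-fold and Phlda1 1.32-fold. Mcl1, Klf2 and Phlda1 were named for the size of their change. The 4 genes that fell changed less and are added here: Klf4, Etv4, Ier2 and Ccnd1, with log2 fold changes of -0.29, -0.27, -0.18 and -0.13. When control replicate 1, control replicate 2 or Nop16 siRNA replicate 2 was left out, 2 genes were lower instead of 4. The Fos, Jun, Egr and Ier genes of that list, classical immediate early genes, were looked up after the values were seen, and 8 were tested. Junb and Ier3 rose, with log2 fold changes of 0.19 and 0.30 (edgeR adjusted p = 0.000308 and 7.73e-07), under every alternative run. Ier5 rose by 0.11 (edgeR adjusted p = 0.0113) and Ier2 fell by 0.18 on the log2 scale (0.0155). Ier5 lost its call without control replicate 2 (0.117) or Nop16 siRNA replicate 1 (0.0619). Ier2 lost it without control replicate 1 (0.0777), control replicate 2 (0.053) or Nop16 siRNA replicate 2 (0.0806). Egr2, with 11 to 34 counts per library, had a log2 fold change of 0.81 (edgeR adjusted p = 0.0447), which moved to 0.51 without control replicate 1 (0.273) and passed in 4 of 15 alternatives. Fos (0.09), Egr1 (0.27) and Egr3 (-0.27) did not pass (edgeR adjusted p = 0.607, 0.532 and 0.396).

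Other brakes on Ras and receptor signalling were mixed, with 5 of 20 higher and 6 lower and a median of -0.01. That was 55% called, beside 45.4% of all genes tested. Cblb, a ubiquitin ligase that limits receptor signalling, rose 2.32-fold from 11.1 ± 1.11 to 25.2 ± 1.80 CPM. The receptor phosphatase gene Ptprj rose 1.44-fold and Rasal3, a Ras GTPase activator, 1.31-fold. Cblb, Ptprj and Rasal3 were named for the size of their change, and all rose although more of the list fell. Nf1, which encodes the neurofibromin that SPRED proteins recruit, was picked after its value was seen and fell by 0.18 on the log2 scale (edgeR adjusted p = 0.00788). Whether any list changed more than other genes was not tested.

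**Figure D5:**
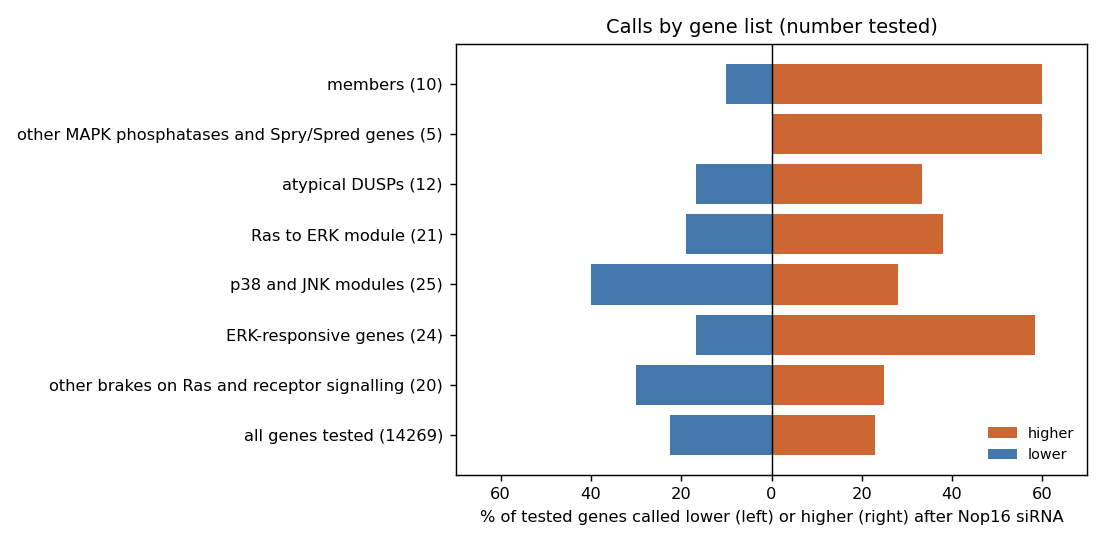
Percentage of the tested genes of each list called lower (blue, left) or higher (orange, right) after Nop16 siRNA at an edgeR adjusted p below 0.05, with the number tested in brackets and all 14269 genes in the bottom bar. The feedback genes (6 higher, 1 lower of 10) and the ERK-responsive genes (14 higher, 4 lower of 24) lean to the right. So do the relatives (3 higher, 0 lower), the atypical phosphatases (4 and 2) and the Ras to ERK module (8 and 4). The p38 and JNK modules (7 and 10) and the other brakes (5 and 6) lean to the left. All genes are close to balanced at 23% and 22.4%.

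The genes whose log2 CPM over the 6 libraries was most like that of Dusp5, the feedback gene with the largest change past the threshold, were Dbi (Pearson r = 0.996), Btbd9 (0.996) and Rundc1 (0.995). These values are the highest picked from 14269 genes and rest on only 6 libraries in 2 groups, and 10 genes exceeded 0.99. Dbi, Btbd9 and Rundc1 had log2 fold changes of 0.15, 0.17 and 0.38. Without control replicate 2, the library lowest in Dusp5, Dbi (edgeR adjusted p = 0.0574) and Btbd9 (0.0572) no longer passed.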

How the data were processed

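The authors counted fragments per gene with featureCounts 2.0.1 on filtered Ensembl 101 models of GRCm38, per the file headers, using strand setting 2 and counting multi-mapped and multi-overlapping fragments. The submitters' processing notes name HISAT2 2.2.1 and Trim Galore. No feedback gene shares exonic bases with another model on its strand. BLAST 2.17.0 found 1 near-identical same-strand transcript, Gm14612 (1 to 10 counts), matching Spred2.

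Libraries were grouped by title. Counts were tested over all 14269 genes kept by filterByExpr with edgeR 4.0.16 in R 4.3.3 (quasi-likelihood, robust, TMM, Benjamini-Hochberg adjusted p below 0.05). SE is the log2 fold change over the root of F. CPM use raw totals, and symbols matched 55141 genes. Intervals cover the spread between libraries and floors cover counting error. Replicates differed by more than sampling noise (chi-square per degree of freedom 2.46 to 3.005). The fit was tested on simulated data.

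The feedback genes and lists were chosen with earlier results of these data known. Named are Nop16, the 10 genes, up to 3 changed genes per list with the largest change and at least 5 CPM, markers past the threshold, and the 3 genes most like the leading feedback gene (log2 CPM, prior count 2). Exceptions are stated. Alternatives were DESeq2 1.42.0, limma-voom (limma 3.58.1), other scalings and filters, robust off, a replicate block, thinning and leaving out each library, plus transcript lengths, added after the data were seen. UTRs came from GENCODE release 21.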

Additional observations from a re-analysis of the deposited data

How the results depend on the processing

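Under every alternative run, 7 of the 10 feedback genes passed, 6 higher and 1 lower, and all 157 values for them kept their direction and their side of the threshold. Dusp2 and Spry1 fell under the filter of 5 CPM in 3 libraries, and Dusp2 also after thinning, so those alternatives gave no value for them. The number of genes called over the whole table ran from 5681 in DESeq2 to 6481, and from 5839 to 6049 with a library left out. As a share of the genes tested, it ran from 25.8% of 24116 without a filter to 55.2% of 10855 with the filter of 5 CPM. Of 685 values for the other named genes, 657 kept direction and call and 23 lost the call, 11 of these for Egr2.

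Among atypical phosphatases, 2 rather than 4 were higher with the filter of 5 CPM, which tests fewer genes, and 1 rather than 2 lower in DESeq2. With a library left out, 1 to 2 of them and 2 to 4 of the ERK-responsive genes were lower. Egr1 and Mapk8, which never passed, changed sign. With a library left out, their log2 fold changes ran from -0.059 to 0.481 for Egr1 (lowest without Nop16 siRNA replicate 3) and from -0.109 to 0.111 for Mapk8 (lowest without control replicate 2, while leaving out Nop16 siRNA replicate 2 gave -0.021). Mapk8 was also at -0.0072 with library size only and -0.022 after thinning. The cause was not tested.

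With a replicate block 6429 genes and the same number of feedback genes, 7, passed. Same-numbered libraries showed no shared deviation (correlations of 0.017, -0.02 and -0.022), and not every library correlated best with its own number, so the numbers were not treated as pairs.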
